A study of Mus musculus with 6 samples.

Results

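The 52 genes described here encode the kinetochore, the spindle checkpoint and its kinases, the condensin complexes and the proteins that protect or release sister chromatid cohesion. They were taken by name from a fixed list, which was drawn up with earlier results of these data known, and all 52 were found among the 41325 gene rows of each library. Every mouse was a female of the outbred ICR stock, 10 weeks old at purchase and habituated for 7 days, and every mouse received intraperitoneal 5-fluorouracil (5-FU, an antimetabolite that blocks thymidylate synthase) at 20 mg/kg per day, 2 times a week for 3 weeks. The 3 elemental diet libraries came from mice that were also given Elental, a liquid diet based on amino acids, by mouth at 1.6 kcal in 0.8 mL per day, in 2 portions on 5 days a week. The 3 saline libraries came from mice given the same volume of saline, so that 5-FU was common to both groups and a comparison without it cannot be made. The labels give 3 mice per group but do not tie each library to its own mouse, so the p-values measure the spread between libraries.

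A kinetochore is built on the centromere of each chromosome and couples it to spindle microtubules. Its inner layer sits on nucleosomes that hold the histone variant CENP-A, and its outer layer, the KNL1, MIS12 and NDC80 complexes, binds the microtubules and carries the spindle checkpoint, which delays anaphase until every kinetochore is attached. Condensins shape chromatin into compact mitotic chromosomes, and separase finally cuts the cohesin rings that hold sister chromatids together. Most of these genes are transcribed mainly between S phase and mitosis, and tissues with few dividing cells hold little of their mRNA.

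The libraries held 29053287 to 33073125 reads assigned to genes, and 3 reads corresponded to 0.0907 to 0.103 CPM (reads per 1e6 reads assigned to genes), the level that a count of 0 still allows from counting error alone. The tissue is labelled salivary gland, while the extraction protocol speaks of fibroblasts or a keratinocyte source. Of 10 marker genes of salivary acinar cells 5 (Smgc, Pip, Bpifa1, Prb1 and Dcpp1) had 0 reads in all 6 libraries, and the list summed to 5.20 to 6.33 CPM with elemental diet and 11.9 to 14.0 CPM with saline. Markers of spleen tissue and blood cells were present instead: Tlx1, a transcription factor gene needed for the spleen to form, averaged 18.8 ± 2.29 CPM with elemental diet and 37.6 ± 0.938 CPM with saline (SD, n = 3 each). No other name is given to the tissue here, and these are the libraries labelled salivary gland. In these bulk samples fewer cells of a type and less RNA per cell cannot be told apart.

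Every one of the 52 genes was higher with elemental diet. The lowest count of any of them in any library was 47 reads, all passed the filter on low counts, and all were called higher by edgeR's quasi-likelihood test at a Benjamini-Hochberg adjusted p under 0.05, where 38.0% of the 18303 tested genes were called higher and 40.2% lower. Their median log2 fold change was 3.72, a 13.2-fold difference, beside a median of -0.08 over all tested genes. In each of the 52 the lowest elemental diet library stood above the highest saline library, an arrangement found in 39.0% of all tested genes. As a share of all reads assigned to genes, the 52 together took 0.569%, 0.574% and 0.607% in the elemental diet libraries, against 0.0998%, 0.0998% and 0.102% in the saline libraries. Because changed genes were so common in this comparison, the 52 were also counted by size: 40 of the 52 were over 4-fold higher, against 7.12% of tested genes, 35 were over 8-fold higher, against 3.69%, and 20 were over 16-fold higher, against 1.84%. No test of the set as a whole was made. In the same libraries all 10 markers of dividing cells and all 11 erythroid markers were higher and all 8 B cell markers lower with elemental diet, and their part in this result was not tested.

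The changes ranged from 1.86-fold for Cenpt to 33.1-fold for Esco2. Esco2 and Birc5 passed 32-fold, 18 genes lay between 16-fold and 32-fold, 15 between 8-fold and 16-fold, 5 between 4-fold and 8-fold, and 9 between 2-fold and 4-fold. The remaining 3, Cenpt, Cenpc1 and Cenps, had log2 fold changes of 0.90, 0.92 and 0.999. Even so, 21.6% of the tested genes had a larger log2 fold change than Cenpt, and 0.563% a larger one than Esco2.

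**Figure D1:**
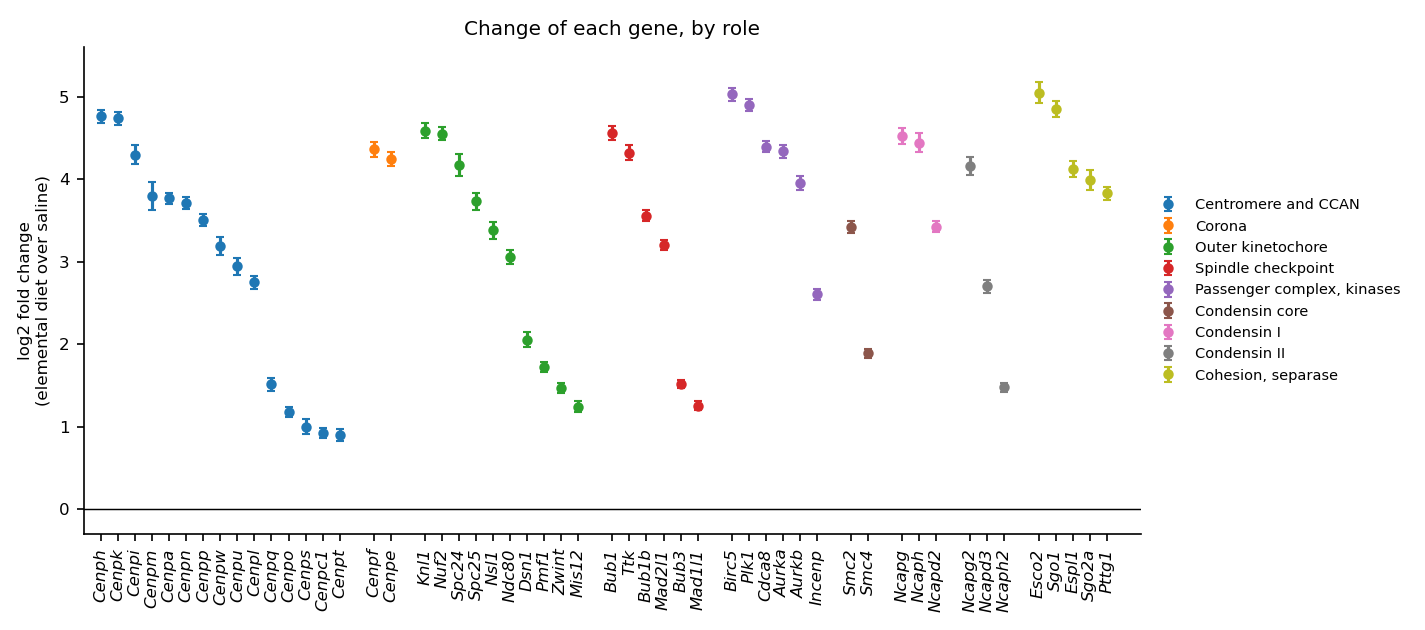
Log2 fold change (elemental diet over saline, vertical axis) of each of the 52 genes from edgeR's test, grouped and coloured by role, with bars of 1 standard error. All points lie above 0, from 0.90 for Cenpt to 5.05 for Esco2. The spread within a role group runs from narrow, as in the corona (4.24 to 4.36), to wide, as in the centromere group (0.90 to 4.76).

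At the centromere, all 15 genes of CENP-A and the constitutive inner kinetochore network rose, with a median log2 fold change of 3.19, and the subunits of the network differed widely in how much. Cenph, which encodes a subunit of the CENP-HIKM module (GRCm38 chr13:100759674-100775899), stood at 104, 111 and 116 CPM in the elemental diet libraries, against 4.22, 3.66 and 4.31 CPM in the saline libraries. The groups were far apart and each was tight (log2 fold change of 4.76 ± 0.08 SE by edgeR, adjusted p = 6.9e-15). Cenpk and Cenpi of the same module rose 26.6-fold and 19.7-fold.

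Cenpt encodes a DNA-binding protein that reaches from the centromere to the NDC80 complex. It stood at 37.2, 36.1 and 38.7 CPM with elemental diet, against 21.7, 19.6 and 18.9 CPM with saline. The groups did not overlap, although the change was the smallest of the 52 (log2 fold change of 0.90 ± 0.07 SE by edgeR, adjusted p = 6.5e-08). Its histone-fold partner Cenpw rose 9.12-fold, so the members of this heterodimer changed unequally. Cenpt overlaps Tsnaxip1 on the opposite strand, and no source used here says whether reads were counted by strand.

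Cenpa (GRCm38 chr5:30666777-30674830), the histone H3 variant that marks the centromere, had the highest CPM of the 15, although per length Cenph was higher with elemental diet, at 125 ± 4.21 TPM (transcripts per 1e6 transcripts, SD, n = 3), than Cenpa, at 109.5 ± 2.80 TPM. Cenpa stood at 255, 265 and 274 CPM with elemental diet, against 17.7, 20.9 and 19.6 CPM with saline. All 3 elemental diet libraries were more than 10 times above any saline library, and the log2 fold change was 3.77 (SE 0.07, edgeR adjusted p = 1.0e-14). CENP-C, the product of Cenpc1, joins CENP-A nucleosomes to the outer kinetochore, and its gene rose only 1.90-fold. Per unit of exon length, Cenpa was 5.37, 5.63 and 5.29 times as abundant as Cenpc1 in the elemental diet libraries, against 0.886, 1.04 and 1.001 times in the saline libraries. This ratio needs no scaling between libraries, and the groups did not overlap in it. In the CENP-OPQU module, which assists microtubule attachment, Cenpp and Cenpu rose 11.3-fold and 7.67-fold while Cenpq and Cenpo rose 2.85-fold and 2.26-fold. Unique reads made up 74.3% (elemental diet) and 77.4% (saline) for Cenpp, 73.6% and 64.0% for Cenpu, and 82.5% and 75.2% for Cenpo. With unique reads their log2 fold changes were 3.41, 3.11 and 1.28. Each gene of this module overlaps a protein-coding gene on the opposite strand. Cenpn and Cenpl, whose products recognise the CENP-A nucleosome, rose 13.1-fold and 6.72-fold.

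The corona, the outermost fibrous layer of the kinetochore, is represented by Cenpe and Cenpf. Cenpe, a kinesin motor that carries chromosomes towards the spindle equator, stood at 126, 141 and 155 CPM with elemental diet, against 7.74, 7.33 and 7.14 CPM with saline. Cenpf, a large coiled-coil protein, stood at 106, 107 and 128 CPM with elemental diet, against 5.66, 5.44 and 5.48 CPM with saline. Both changed by a similar factor, 19.0-fold and 20.5-fold (SE 0.09 on the log2 scale for each, edgeR adjusted p = 6.0e-14 and 5.0e-14), and in both the third elemental diet library was the highest.

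All 10 outer kinetochore genes rose, with a median log2 fold change of 3.21. Knl1 (chr2:119047119-119105501), the scaffold on which checkpoint proteins assemble, stood at 126, 141 and 149.8 CPM with elemental diet, against 6.30, 5.23 and 5.82 CPM with saline. Every elemental diet library was far above every saline library (log2 fold change of 4.59 ± 0.09 SE by edgeR, adjusted p = 3.1e-14). Its partner Zwint, which recruits a further checkpoint complex, changed less: it stood at 159, 177 and 178 CPM with elemental diet, against 61.3, 60.8 and 63.7 CPM with saline (log2 fold change of 1.47 ± 0.06 SE by edgeR, adjusted p = 1.6e-11). Per length, Zwint was 2.25, 2.22 and 2.13 times as abundant as Knl1 in the elemental diet libraries, against 17.3, 22.4 and 20.3 times in the saline libraries. The subunits of this complex were thus closer in level with elemental diet.

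The same held within the MIS12 complex, which links inner and outer kinetochore. Mis12 stood at 61.0, 64.7 and 72.4 CPM with elemental diet, against 27.5, 26.8 and 29.4 CPM with saline. The groups did not overlap and the change was the smallest of the outer kinetochore (log2 fold change of 1.24 ± 0.07 SE by edgeR, adjusted p = 1.1e-09). Mis12 overlaps Derl2 on the opposite strand, and whether reads were counted by strand is not known. Its fellow subunits Pmf1, Dsn1 and Nsl1 rose 3.29-fold, 4.15-fold and 10.4-fold. The most abundant subunit was 2.22 times the least abundant one per length with elemental diet and 11.8 times with saline, Mis12 and Nsl1 at the ends in both groups. In the NDC80 complex, which grips the microtubule, Nuf2, Spc24, Spc25 and Ndc80 rose 23.4-fold, 18.0-fold, 13.3-fold and 8.29-fold. There the spread per length went the other way, 3.45 times with elemental diet and 1.83 times with saline.

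The 6 spindle checkpoint genes all rose, a pair of them by little and the others by much. Bub1 (chr2:127801122-127831865), a checkpoint kinase that also marks the inner centromere, stood at 102, 98.8 and 114 CPM with elemental diet, against 4.45, 4.17 and 4.74 CPM with saline. The groups were well apart (log2 fold change of 4.56 ± 0.08 SE by edgeR, adjusted p = 1.3e-14). Ttk, the kinase (Mps1) that starts checkpoint signalling, rose 20.0-fold, Bub1b, which encodes the checkpoint protein BubR1, 11.8-fold, and Mad2l1, the inhibitor that closes around the anaphase activator Cdc20, 9.19-fold. 

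Bub3 and Mad1l1 were the checkpoint genes with small changes. Bub3, the adaptor that holds Bub1 and BubR1 on Knl1, stood at 184, 193 and 191 CPM with elemental diet, against 66.0, 65.5 and 67.2 CPM with saline (log2 fold change of 1.51 ± 0.05 SE by edgeR, adjusted p = 1.8e-12). Mad1l1, the platform that converts Mad2 to its active form, stood at 61.0, 63.5 and 60.9 CPM with elemental diet, against 25.9, 25.1 and 26.7 CPM with saline (log2 fold change of 1.25 ± 0.06 SE by edgeR, adjusted p = 9.9e-11). In both the libraries of a group lay close together and the groups did not overlap. Relative to their partners per length, Bub1 stood at 0.814, 0.753 and 0.901 of Bub3 with elemental diet, against 0.0920, 0.0892 and 0.0994 with saline. Mad2l1 stood at 1.44, 1.48 and 1.48 times Mad1l1 with elemental diet, against 0.550, 0.549 and 0.464 times with saline. Of the Bub3 reads 68.2% with elemental diet and 67.7% with saline were unique to the gene, and with unique reads alone its log2 fold change was 1.49. Bub3 overlaps the protein-coding gene Fgfr2 on the opposite strand, and Mad1l1 overlaps annotated antisense genes. Whether reads were counted by strand is not known.

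The chromosomal passenger complex and the mitotic kinases all rose, with a median log2 fold change of 4.36 over 6 genes, the highest median of the role groups with more than 3 genes. Birc5 (chr11:117849251-117855743), which encodes survivin, the subunit that docks the passenger complex at the centromere, stood at 245, 257 and 254 CPM with elemental diet, against 8.61, 6.70 and 7.85 CPM with saline. No overlap was seen, and the log2 fold change was 5.03 (SE 0.08, edgeR adjusted p = 4.7e-15). Borealin (Cdca8) and the kinase Aurkb, also subunits, rose 21.0-fold and 15.5-fold.

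Incenp, the scaffold that activates Aurora B, had the smallest change of this group. It stood at 231, 247 and 269 CPM with elemental diet, against 41.3, 42.3 and 39.5 CPM with saline. The groups were clearly apart, at a log2 fold change of 2.60 (SE 0.06, edgeR adjusted p = 1.4e-13). Birc5 was 1.13, 1.10 and 1.01 times as abundant as Incenp per length in the elemental diet libraries, against 0.232, 0.178 and 0.234 times in the saline libraries. The kinase gene Plk1, which acts at centrosomes and kinetochores, had the second highest level per length of the 52 with elemental diet, 229.8 ± 11.7 TPM, against 9.55 ± 0.292 TPM with saline. Aurka, the centrosomal Aurora kinase, rose 20.2-fold.

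**Figure D2:**
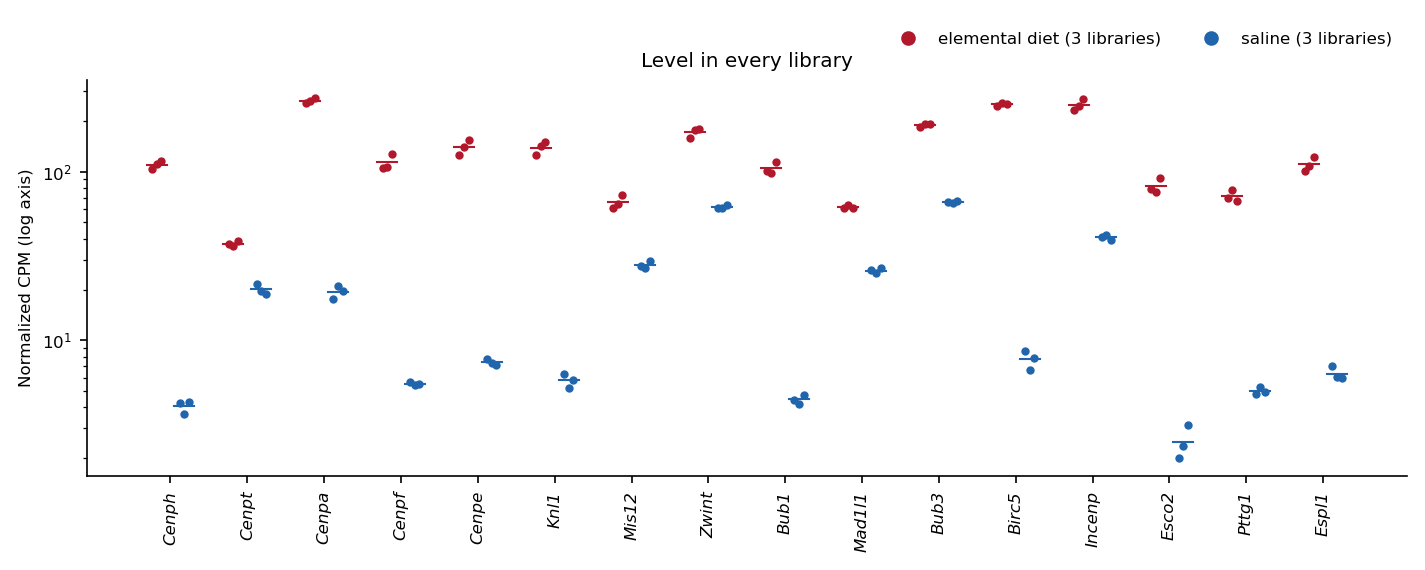
Normalized CPM on a log axis in each of the 6 libraries for genes of the kinetochore, checkpoint, passenger complex and cohesion that the text gives in full, with elemental diet in red to the left of saline in blue and a line at the group mean. The 3 libraries of a group lie close together, and no gene shown has overlapping groups.

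All 8 condensin genes rose. The core ATPases are shared by both condensins, and they changed unequally. Smc2 stood at 312, 326 and 365 CPM with elemental diet, against 30.8, 33.4 and 29.5 CPM with saline (log2 fold change of 3.42 ± 0.07 SE by edgeR, adjusted p = 6.5e-14). Smc4 stood at 529, 546 and 569 CPM with elemental diet, against 139.98, 144 and 161 CPM with saline (log2 fold change of 1.89 ± 0.06 SE by edgeR, adjusted p = 1.8e-12). Both had groups without overlap, and Smc4 had the highest level per length of the 52 in both groups. Smc2 was 0.578, 0.588 and 0.626 times as abundant as Smc4 per length with elemental diet, against 0.222, 0.236 and 0.183 times with saline.

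Condensin I gains access to chromosomes when the nuclear envelope breaks down. Of its subunits Ncapg rose most, with 150.2, 156 and 165 CPM with elemental diet, against 5.66, 7.99 and 6.86 CPM with saline (log2 fold change of 4.52 ± 0.09 SE by edgeR, adjusted p = 4.2e-13). Ncapd2 rose least, with 299.5, 322 and 355 CPM with elemental diet, against 30.5, 29.3 and 31.3 CPM with saline (log2 fold change of 3.42 ± 0.07 SE by edgeR, adjusted p = 2.8e-14). Neither gene had overlapping groups, and the kleisin subunit Ncaph rose 21.7-fold.

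Condensin II is nuclear throughout the cell cycle and begins chromosome compaction in prophase. Ncapg2 rose most, with 242, 256 and 288 CPM with elemental diet, against 12.9, 17.1 and 14.0 CPM with saline (log2 fold change of 4.16 ± 0.11 SE by edgeR, adjusted p = 1.5e-10). Ncaph2, its kleisin, rose least, with 238, 248 and 262 CPM with elemental diet, against 92.6, 86.5 and 89.8 CPM with saline (log2 fold change of 1.47 ± 0.05 SE by edgeR, adjusted p = 7.2e-12). In both genes the groups were apart, and Ncapd3 rose 6.50-fold.

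The balance between the condensins differed between the groups. Summed over their 3 specific subunits and per length, condensin I stood at 0.984, 1.02 and 1.03 of condensin II in the elemental diet libraries, against 0.271, 0.297 and 0.296 in the saline libraries. The groups did not overlap, and the means were 1.01 ± 0.0246 with elemental diet and 0.288 ± 0.0150 with saline (SD, n = 3 each). With saline the condensin II sum was mostly Ncaph2, at a mean of 63.1 TPM, beside 7.40 TPM for Ncapd3 and 4.87 TPM for Ncapg2. The summed ratio therefore depends largely on this single gene. Of the ratios between paired subunits, that of the kleisins differed most between the groups: Ncaph was 0.470, 0.508 and 0.531 times as abundant as Ncaph2 with elemental diet, against 0.0492, 0.0748 and 0.0702 times with saline. For the HEAT-repeat subunits the same ratios were closer together between groups, 0.870 ± 0.0383 with elemental diet and 0.656 ± 0.0350 with saline for Ncapg over Ncapg2, and 3.13 ± 0.116 with elemental diet and 1.96 ± 0.160 with saline for Ncapd2 over Ncapd3. Of the Ncaph2 reads 85.9% with elemental diet and 84.7% with saline were unique to it. Its log2 fold change with unique reads was 1.46. Ncaph2 also overlaps Sco2 and Tymp on the opposite strand, and whether reads were counted by strand is not known.

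**Figure D3:**
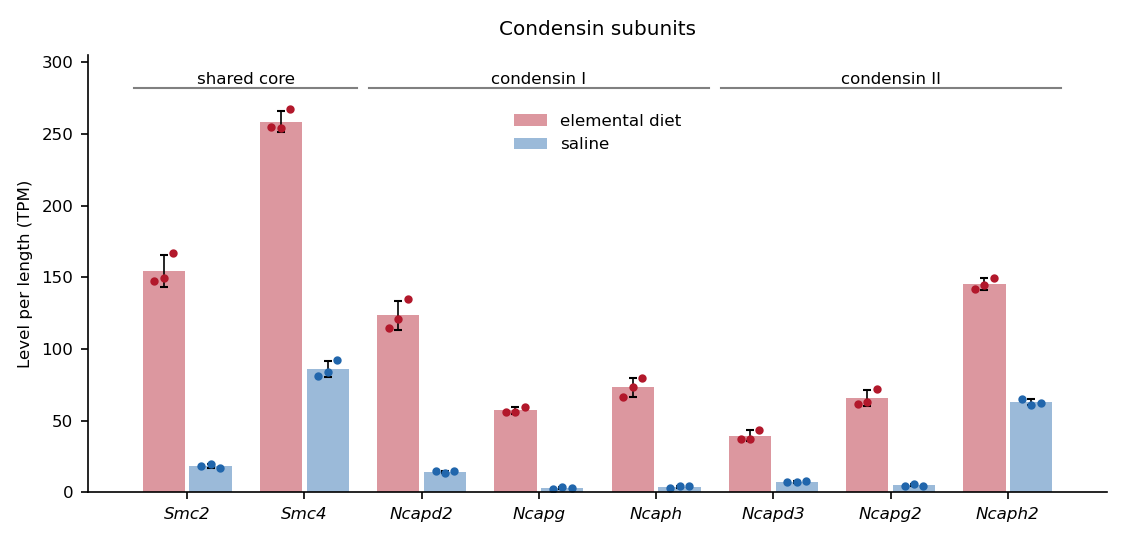
Level per length (TPM) of the 8 condensin genes, with bars for the mean, points for the 3 libraries of each group and error bars for the SD, elemental diet left of saline. Smc4 and Ncaph2 have the highest bars with saline, 85.8 and 63.1 TPM, while the condensin I subunits there lie at 14.4 TPM or below.

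All 5 cohesion and separase genes rose, each over 8-fold. Esco2, the acetyltransferase that locks cohesin onto replicated DNA in S phase, stood at 78.8, 76.3 and 91.6 CPM with elemental diet, against 1.99, 2.34 and 3.14 CPM with saline. It had the largest change of the 52 and the groups were far apart (log2 fold change of 5.05 ± 0.13 SE by edgeR, adjusted p = 1.7e-11). Its paralog Esco1, which acts outside S phase as well and is not one of the 52, averaged 58.3 ± 4.05 CPM with elemental diet and 68.6 ± 0.954 CPM with saline (SD, n = 3 each). Per length, Esco2 stood at 1.03, 0.829 and 1.09 times Esco1 with elemental diet, against 0.0235, 0.0257 and 0.0331 times with saline.

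Espl1 encodes separase, the protease that opens cohesin at anaphase. Its levels were 101, 108 and 123 CPM with elemental diet, against 7.02, 6.04 and 5.94 CPM with saline (log2 fold change of 4.12 ± 0.09 SE by edgeR, adjusted p = 3.3e-13). Pttg1, securin, which holds separase inactive, had 70.0, 77.5 and 66.6 CPM with elemental diet, against 4.82, 5.32 and 4.96 CPM with saline (log2 fold change of 3.83 ± 0.08 SE by edgeR, adjusted p = 5.3e-14). Neither gene had overlapping groups. The mRNA ratio of inhibitor to protease did not separate the groups. Per length Pttg1 was 3.18, 3.21 and 2.42 times Espl1 with elemental diet, against 2.90, 3.66 and 3.73 times with saline. These ranges overlapped, which with 3 libraries a group does not show that the ratio was equal. The shugoshin genes Sgo1 and Sgo2a, whose products shield centromeric cohesin, rose 28.7-fold and 15.9-fold. Only 45.1% of the Sgo2a reads with elemental diet and 49.8% with saline were unique to it, and with unique reads its log2 fold change was 3.81.

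Across the 52 genes the levels per length were more alike with elemental diet than with saline. The SD of log2 TPM over the 52 genes was 1.10, 1.11 and 1.10 in the elemental diet libraries, against 1.54, 1.59 and 1.57 in the saline libraries. Over the 12667 genes with at least 1 TPM in every library the order was the opposite, 2.05 to 2.10 with elemental diet and 1.88 to 1.89 with saline. The 52 were not held to that floor, and Cenpi and Cenpk fell below 1 TPM in at least 1 saline library. The 12 genes that changed by less than 4-fold were Cenpc1, Cenpo, Cenpq, Cenps, Cenpt, Zwint, Mis12, Pmf1, Bub3, Mad1l1, Smc4 and Ncaph2. Just inside this limit was Smc4 at 3.70-fold and just outside it Dsn1 at 4.15-fold. With elemental diet the 12 had a median of 47.7 TPM and the other 40 a median of 47.2 TPM. With saline the medians were 18.2 TPM for the 12 and 3.66 TPM for the 40. This split was made on the same comparison and is a description. Of the 12, Cenpo, Cenpq, Cenpt, Mis12, Bub3 and Ncaph2 overlap a protein-coding gene on the opposite strand. Of the 40, Cenpk, Cenpp, Cenpu, Cdca8, Ncapg and Sgo2a do. Whether reads were counted by strand is not known, and the part of such overlaps in these levels was not tested. Within the 11 complexes that could be formed from the list, the most abundant subunit exceeded the least abundant one by a smaller factor with elemental diet in 8 and by a larger factor in 3 (NDC80, CENP-HIKM and CENP-LN).

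The promoters of these genes were read from RefSeq (GRCm38.p6), in windows of 250 bases before to 50 bases after each start, and 46 of the 52 genes matched. The genes without a window were Aurkb, Spc24, Esco2, Incenp, Nsl1 and Smc4. Among them are Esco2, with the largest change of the 52, and Smc4, which changed by less than 4-fold. The sequence called CHR (cell cycle genes homology region; the letters TTTGAA and also TTCGAA, searched on both strands) is bound by the DREAM and B-MYB complexes that control late cell cycle genes, CCAAT is bound by NF-Y, and E2F factors bind sites such as the letters TTTCGCG, the letters TTTGGCG and the letters TTCCCGC. A CHR within 50 bases of the start was present in 20 of the 46 genes (43.5%), against 6.12% of all 27025 genes with a window. Anywhere in the window a CHR was present in 54.3% of the 46 and 21.7% of all genes, CCAAT in 65.2% and 41.1%, and the E2F letters in 32.6% and 7.64%. Over the 12738 genes with a window that were also tested for expression, the shares were 4.62% for a CHR within 50 bases of the start, and 17.2% for a CHR, 42.2% for CCAAT and 12.6% for the E2F letters anywhere in the window. Some of these matches overlap, as in Cenpw, where a CCAAT shares bases with a CHR. A match is a description of the letters and not evidence of binding. The next sequences show the 30 bases around the CHR, in capitals, for genes of different roles, 5′ to 3′ on the strand of the gene. The first 8 changed by more than 8-fold, and the last 2 are the genes with a CHR near the start that changed by less than 4-fold.
Plk1, chr7:122159453-122159482 (+): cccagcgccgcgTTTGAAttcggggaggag
Sgo1, chr17:53689271-53689300 (-): gtaacgcagaatTTCGAAtgtggcggcggt
Knl1, chr2:119047138-119047167 (+): agggcggttagaTTTGAAtacttcagggac
Bub1, chr2:127831828-127831857 (-): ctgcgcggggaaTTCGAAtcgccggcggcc
Ncapg, chr5:45669883-45669912 (+): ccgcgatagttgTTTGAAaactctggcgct
Cenpf, chr1:189688067-189688096 (-): ggcggcgggcagTTTGAAtcgctcgtgctg
Espl1, chr15:102296254-102296283 (+): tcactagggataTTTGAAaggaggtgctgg
Cenpa, chr5:30666890-30666919 (+): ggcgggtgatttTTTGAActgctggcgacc
Bub3, chr7:131560315-131560344 (+): gagccgttggcgTTCAAAatcagccaatga
Ncaph2, chr15:89355685-89355714 (+): cttctttacttcTTCGAAactgggcccgcc

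The 20 genes with a CHR near the start had a median log2 fold change of 4.14, and 18 of them were over 8-fold higher. The 26 without one had a median of 3.07, and 13 of them were over 8-fold higher. Genes under 4-fold numbered 2 of the 20 and 9 of the 26. Of the motif splits made, this one had the widest gap between its medians. The median was 3.77 in the 25 genes with a CHR anywhere in the window and 3.20 in the 21 without, and 3.78 in the 30 with CCAAT and 3.13 in the 16 without. With at least 2 CCAAT it was 3.77 in 15 genes, against 3.56 in the other 31. With both a CHR and a CCAAT it was 3.78 in 20 genes, against 3.13 in the other 26. For the E2F letters it was 3.71 in the 15 genes with them and 3.73 in the 31 without, and 10 of the 15 and 21 of the 31 were over 8-fold higher. No test of these differences was made. Single genes went against this order: Birc5, at 32.6-fold, has none of these letters in its window, and Bub3, at 2.86-fold, has a CHR with CCAAT on either side. The 120 bases before the start follow for Ncapg and Ttk, which changed by 23.0-fold and 20.0-fold, and for Zwint and Cenpc1, which changed by 2.77-fold and 1.90-fold, with CHR, CCAAT and E2F letters in capitals on either strand.
Ncapg, chr5:45669805-45669924 (+): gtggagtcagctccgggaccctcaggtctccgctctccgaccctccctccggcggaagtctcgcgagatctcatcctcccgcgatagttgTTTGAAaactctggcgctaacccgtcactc
Ttk, chr9:83834569-83834688 (+): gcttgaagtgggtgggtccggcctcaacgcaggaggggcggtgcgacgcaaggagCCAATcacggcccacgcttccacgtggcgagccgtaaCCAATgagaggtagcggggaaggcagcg
Zwint, chr10:72654726-72654845 (+): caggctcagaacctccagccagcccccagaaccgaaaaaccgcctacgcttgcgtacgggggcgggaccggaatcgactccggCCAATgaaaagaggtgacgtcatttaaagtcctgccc
Cenpc1, chr5:86065584-86065703 (-): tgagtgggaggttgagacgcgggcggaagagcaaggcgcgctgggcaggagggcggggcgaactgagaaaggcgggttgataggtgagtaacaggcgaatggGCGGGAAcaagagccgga

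In the printed stretch Ncapg has a CHR, Ttk a pair of CCAAT, Zwint a CCAAT and Cenpc1 E2F letters on the other strand. The CHR of Ttk lies after the start. Letters missing from a window say only that they were not found there.

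Reads in introns, which can come from RNA not yet spliced, gave a second readout of the same genes. With intron reads 51 of the 52 genes were called higher, where 32.9% of 14493 tested genes were, and 39 were over 4-fold higher, against 7.90%. The exception was Cenps, whose product also serves in DNA repair as MHF1: its log2 fold change was 0.24 with intron reads (edgeR adjusted p = 0.19) and 1.29 with exon reads. With exon reads all 52 were called higher, where 38.6% of 16681 tested genes were. The median log2 fold change of the 52 was 3.76 with exon reads and 3.23 with intron reads. Each fit was scaled on its own reads. A difference in intron share common to all genes was thereby largely taken out of the comparison of exon with intron changes.

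After this scaling the exon and intron changes differed by at most 0.5 on the log2 scale in 30 of the 52 genes. The exon change was larger by more than that in 18 and the intron change in 4. For Bub3, among the 4, introns held nearly the same plain share of reads in both groups, 2.28% with elemental diet and 2.15% with saline. The exon value minus the intron value had a median of 0.20 over the 52 genes, of 0.18 over the 963 genes that were over 4-fold higher in exon reads and were tested in both, and of 0.04 over all 13277 genes tested in both. It was above 1 in Knl1, Cenpw, Cenpm and Cenps. For Knl1 the exon change was 4.78 and the intron change 3.35. Esco2 went the other way, with 4.89 ± 0.12 SE for exon reads and 5.90 ± 0.27 SE for intron reads. Its intron value rests on only 18 intron reads in the 3 saline libraries together. For Sgo2a, also among the 4 with the larger intron change, there were 9.

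**Figure D4:**
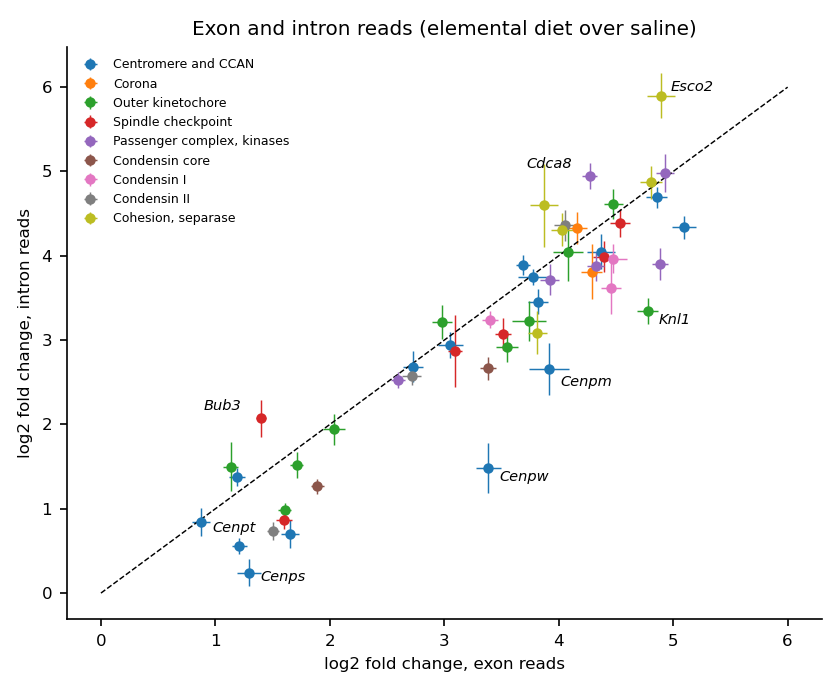
Log2 fold change (elemental diet over saline) of each of the 52 genes from intron reads (vertical) against that from exon reads (horizontal), with bars of 1 standard error and a dashed line of equality, coloured by role. Each fit was scaled on its own reads, so the line marks equality after that scaling. Of the 52 points 30 lie within 0.5 of the line, and Knl1, Cenpw, Cenpm and Cenps lie more than 1 below it.

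Introns held 9.08%, 8.78% and 9.06% of the reads of the 52 genes in the elemental diet libraries, against 17.6%, 17.1% and 17.3% in the saline libraries. Over all genes they held 8.82%, 8.39% and 8.70% with elemental diet, against 14.4%, 13.9% and 13.7% with saline, so the lower intron share was common to the libraries and not confined to these genes. The intron share was lower in every elemental diet library in 39 of the 52, against 55.4% of 14398 genes with at least 20 reads in every library. Cenpp, a gene of 188763 bases, had the highest share, 57.2% with elemental diet and 67.2% with saline, and it contains genes on the opposite strand. Another annotated gene overlapped 23 of the 52, a protein-coding one in 12.

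The spread between libraries of a group was small beside these changes. The coefficient of variation of the CPM had a median over the 52 genes of 6.03% with elemental diet and 7.28% with saline, and its highest values were 13.2% for Nsl1 with elemental diet and 31.1% for Cenpm with saline. The third elemental diet library was the highest of its group in 43 of the 52 genes, while the highest saline library was spread over the 3 as 15, 16 and 21 genes. Without the third elemental diet library all 52 were still called higher, with a median log2 fold change of 3.71.

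Related genes that are not among the 52 changed less evenly. In these lists and the marker lists below, the counts stand beside 38.0% of all tested genes called higher and 40.2% lower. All 4 genes that deposit CENP-A rose, from Mis18a at a log2 fold change of 1.20 to Oip5 at 4.58. Of 13 other kinetochore and checkpoint genes 12 rose, with a median of 2.59. At the top Kntc1, a subunit of the RZZ complex that brings dynein to kinetochores, averaged 117 ± 12.2 CPM with elemental diet and 5.78 ± 0.452 CPM with saline. At the bottom Bod1, a phosphatase regulator, had a log2 fold change of -0.19 (edgeR adjusted p = 0.060). Of 14 spindle and cytokinesis genes 12 rose, with a median of 3.62, close to the 3.72 of the 52. Hmmr, a spindle assembly protein, was highest at 5.22. Numa1, which anchors spindle poles and is also a nuclear protein of non-dividing cells, was called lower at -0.25. Cep55 was not called.

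Cohesin genes moved in both directions. Of 13 genes of cohesin, its loaders and its regulators 9 rose and 3 fell, with a median log2 fold change of 0.61. Cdca5, sororin, which protects cohesion from S phase to mitosis, averaged 65.3 ± 2.18 CPM with elemental diet and 3.59 ± 0.206 CPM with saline (log2 fold change 4.18), and Hdac8, the deacetylase that recycles cohesin, was lowest at -0.93. Smc2 was 1.27 ± 0.0389 times as abundant per length as the cohesin ATPase Smc3 with elemental diet and 0.375 ± 0.0268 times with saline (SD, n = 3 each). Of the 6 genes of the SMC5/6 repair complex 4 rose, none over 4-fold, from -0.06 for Nsmce2 to 1.15 for Nsmce4a.

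The anaphase-promoting complex, the ubiquitin ligase that the checkpoint restrains, is represented by its subunits, activators and enzymes. Of 19 genes 18 rose, with a median log2 fold change of 1.09, from Anapc16, a core subunit, at -0.23 to Ube2c, its ubiquitin-conjugating enzyme, at 4.80. Among the other polo-like kinases Plk4, which licenses centriole duplication, rose, with a log2 fold change of 3.50, while Plk2 and Plk3, which respond to stress, fell, with -1.24 and -1.11. The 10 listed meiotic counterparts had a low summed level, 9.01 to 10.3 CPM with elemental diet and 5.86 to 7.20 CPM with saline. Of these, 5 could be tested: Rec8, a meiotic kleisin, and Sycp2 rose, with log2 fold changes of 1.87 and 2.55, while Smc1b and Sycp1 fell, with -1.43 and -4.67. Among those not tested Aurkc had 0.0487 ± 0.0425 CPM with elemental diet and 0.0393 ± 0.0340 CPM with saline (SD, n = 3 each), and Rad21l had no read.

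Some small changes depended on the scaling between libraries. With upper quartile scaling or none the median of all genes moved by -0.27 or -0.31. Of the related genes Cenpb was then no longer called, Anapc4 and Pds5b were not called or lower, and Bod1, Nipbl, Nsmce2 and Smc6 were called lower. Smc6 was called higher with RLE scaling (log2 fold change 0.12, edgeR adjusted p = 0.039), so its direction turned with the scaling. In all of these scalings the direction and call of each of the 52 stayed as they were.

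**Figure D5:**
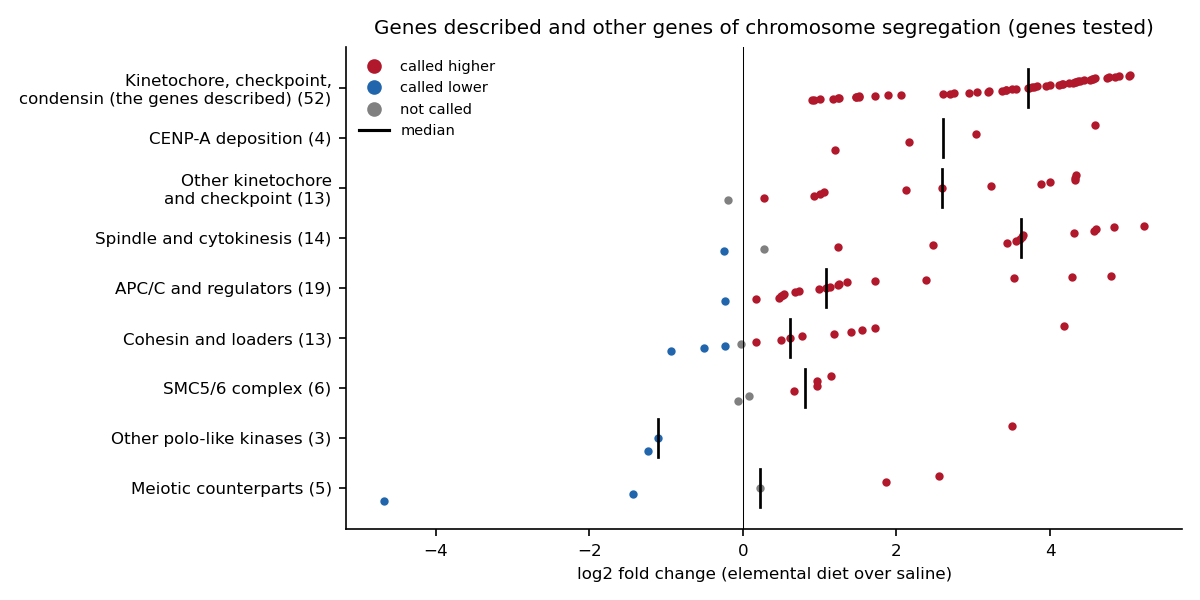
Log2 fold change (elemental diet over saline, horizontal) of the 52 genes and of each tested gene in 8 related lists, with the number tested in brackets, red for genes called higher, blue for called lower and grey for not called, and a black line at the median. The 52 have a median of 3.72, beside 3.62 for spindle and cytokinesis genes, 1.09 for the anaphase-promoting complex and 0.61 for cohesin.

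Markers of several cell types moved in the same libraries. All 10 genes that mark dividing cells rose, with a median log2 fold change of 4.88. Their summed level was 5428 to 6251 CPM with elemental diet and 248 to 262 CPM with saline. Mki67 and Rrm2 were the most abundant. All 11 erythroid genes, led by Hba-a1 and Hbb-bs, rose, at 44069 to 45097 CPM with elemental diet and 2883 to 4571 CPM with saline. All 9 genes of neutrophil precursors rose, at 224 to 262 CPM with elemental diet and 5.73 to 6.82 CPM with saline, Mpo and S100a9 leading. All 6 megakaryocyte genes rose as well, at 3582 to 4532 CPM with elemental diet and 1522 to 1639 CPM with saline, led by Ppbp and Pf4, though Pf4 was no longer called with upper quartile scaling or none.

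Lymphoid markers moved the other way. All 8 B cell genes fell, led by Cr2 and Cd79a, with a summed 785 to 837 CPM with elemental diet and 5743 to 5938 CPM with saline. All 7 T cell genes, led by Lck and Cd4, fell, at 60.2 to 66.8 CPM with elemental diet and 397 to 484 CPM with saline. Of 6 plasma cell genes 5 fell and 1 rose, led by Jchain and Xbp1, at 442 to 493 CPM with elemental diet and 1577 to 1743 CPM with saline. Of 5 tested germinal centre genes 2 rose and 2 fell (3 with upper quartile scaling or none, where S1pr2 was also called lower), led by Gcsam and Fas, at 48.2 to 60.0 CPM with elemental diet and 35.6 to 38.8 CPM with saline. All 6 spleen genes fell, at 377 to 446 CPM with elemental diet and 696 to 816 CPM with saline, led by Vcam1 and Stab2. Of the salivary duct and basal cell list 6 of 9 genes could be tested and 3 fell, at 7.43 to 14.8 CPM with elemental diet and 25.3 to 26.3 CPM with saline. No gene of the dividing cell, erythroid, neutrophil, megakaryocyte, B cell, T cell, plasma cell, germinal centre or spleen lists was at 0 reads in all libraries. The part of these cell type differences in the changes of the 52 genes was not tested.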

How the data were processed

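Polyadenylated RNA was sequenced as paired reads of 75 bp, per the labels' protocols. The deposited files give, per the file headers, whole-number read counts per gene (exon, intron and total, all or unique) together with TPM and RPKM columns made by the authors from exon reads and exon length. The builds named in the submitters' processing notes are GRCh37 and GRCm38; no aligner, counter or use of strand is named in what was used here. All 52 identifiers were found in GENCODE M21, 51 with the same coordinates.

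Total gene counts of all 6 libraries were compared, elemental diet over saline, with edgeR 4.0.16 in R 4.3.3 (glmQLFit, robust, glmQLFTest, two-sided, TMM, filterByExpr), adjusted by Benjamini-Hochberg over all tested genes at 0.05; exon, intron and unique reads were fitted in the same way. The standard error is the log2 fold change over the square root of F. The common biological coefficient of variation was 8.26%. The test was tried on simulated counts in which far fewer genes were changed than were called here. That trial cannot say how the test performs when so many genes change. CPM use TMM-scaled totals; read shares and floors use plain totals. TPM recomputed from exon reads equalled the authors' column to within 4.98e-07 TPM. Unique reads made up 86.0% to 87.7% of each library. The 52 genes, the related and marker lists and the tests were chosen with earlier results of these data known. Values in every library are given for the genes with the largest change, the smallest change and the highest CPM of each of the 9 role groups. Of related lists the extremes are named, and of marker lists the 2 most abundant genes; other genes named were picked for their role in a complex.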

Additional observations from a re-analysis of the deposited data

How the results depend on the processing

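All 52 genes were called higher in each of the 16 alternatives tried for total gene reads (scaling, filters, DESeq2 1.42.0, limma-voom 3.58.1, unique reads, exon reads, replicate block and each library left out in turn); over these 832 values the largest adjusted p was 3.7e-05 and the smallest log2 fold change 0.59. The median log2 fold change of the 52, 3.72, was 3.45 with upper quartile scaling, 3.41 with none and 3.64 to 3.75 with a library left out. With exon reads the median of 3.76 was 3.48 with upper quartile scaling and 3.47 with none. Calls over all genes were less settled: 6951 higher and 7352 lower became 5601 and 9051 with upper quartile scaling and 5407 and 9265 with none, so that genes called higher made up 48.6% of calls against 38.2% and 36.9%. With intron reads 51 of the 52 were called higher in every alternative.

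Deviations of same-numbered libraries from their group means correlated at 0.117, -0.00799 and 0.0578 (numbers 1, 2 and 3). Between libraries of different numbers the values ran from -0.104 to 0.0597. With 3 libraries a group these values cannot tell whether the numbers pair the libraries. With the replicate block 6925 genes were called higher and 7316 lower, all 52 were higher and their median was 3.72. The ratio of condensin I to condensin II was the same from the authors' TPM and RPKM columns. With 3 libraries a group, an exact permutation test of a single value cannot go below p = 0.1. Genes near 2 CPM with saline, such as Esco2 and Cenpm, rest on few reads there.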
